A study of Mus musculus and Homo sapiens with 15 samples.

Results

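The B-cell identity genes are 9 genes, Ms4a1, Cd79a, Cd79b, Pax5, Ebf1, Cd22, Cr2, Fcer2a and Jchain, chosen by symbol from the 52340 genes of one table and the 56691 of another. All 9 were found in both, with the same gene identifiers. The first table holds tumour-bearing thymus of W/W mice, which carry p53 R282W on both chromosomes and develop T-cell lymphomas, all sampled on day 150 after birth. Of these 9 libraries, 3 are from mice given water, 3 from mice given arsenic trioxide (ATO) with progressing tumours, and 3 from mice given ATO with regressing tumours. The second table holds tumours of what the labels call a CDX model in C57 mice of WT genotype, referred to here as grafts, with 2 libraries from mice given phosphate-buffered saline (PBS) and 2 given ATO. The labels do not name the grafted cells, the ATO dose or the duration, and do not say whether each library came from a separate animal. P-values therefore measure only the spread between these libraries. The progressing and regressing groups were formed by outcome, so treatment and outcome cannot be told apart when either is compared with water. The study set T-lymphomas before treatment against those after ATO. In the libraries used here this is a comparison of groups given water or PBS with groups given ATO.

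B cells carry an antigen receptor, a membrane immunoglobulin paired with a signalling heterodimer encoded by Cd79a and Cd79b. The transcription factors Ebf1 and Pax5 establish and keep B-lineage identity. Ms4a1 (CD20), Cd22, Cr2 (CD21) and Fcer2a (CD23) are surface proteins of B cells, the last pair being characteristic of mature stages. When a B cell becomes a plasma cell it shuts down Pax5 and most of these surface genes and secretes immunoglobulin, and Jchain, which links IgM and IgA into polymers, is strongly expressed. A normal thymus contains few B cells and plasma cells, and in a bulk sample fewer cells of a type and less RNA per cell cannot be told apart.

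RefSeq start sites on GRCm38.p6 matched 7 of the 9 members, with 10 windows of 300 bases in all. Ms4a1 and Cd79b had none. Upstream sequence is given for 4 genes whose levels parted between libraries: Cd79a and Cd22, both high in the second water library, Cr2, near 0 in it, and Jchain, the plasma-cell member. The stretches are chr7:24897247-24897380 on the plus strand for Cd79a and, on the minus strand, chr7:30879029-30879176 for Cd22, chr1:195176720-195176969 for Cr2 and chr5:88527898-88528147 for Jchain. The Cd22 stretch lies inside the Cd22 gene as annotated, upstream of a RefSeq start within it. Bases inside an annotated exon were left out, and each stretch is written 5′ to 3′ on the strand of its gene with motif matches in capitals.
Cd79a: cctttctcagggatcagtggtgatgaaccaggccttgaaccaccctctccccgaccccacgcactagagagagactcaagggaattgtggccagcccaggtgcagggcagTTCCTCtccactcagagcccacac
Cd22: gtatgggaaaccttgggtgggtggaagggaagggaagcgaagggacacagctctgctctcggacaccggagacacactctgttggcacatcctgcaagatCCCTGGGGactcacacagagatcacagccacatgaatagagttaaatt
Cr2: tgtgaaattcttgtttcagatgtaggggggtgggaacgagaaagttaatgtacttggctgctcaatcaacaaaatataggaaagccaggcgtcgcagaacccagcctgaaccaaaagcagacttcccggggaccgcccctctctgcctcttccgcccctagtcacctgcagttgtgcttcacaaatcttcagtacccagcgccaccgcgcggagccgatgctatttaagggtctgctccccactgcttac
Jchain: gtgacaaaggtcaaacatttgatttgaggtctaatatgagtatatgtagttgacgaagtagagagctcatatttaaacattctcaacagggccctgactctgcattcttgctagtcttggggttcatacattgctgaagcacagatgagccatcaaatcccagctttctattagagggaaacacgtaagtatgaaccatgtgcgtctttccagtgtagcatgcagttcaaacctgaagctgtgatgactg
Letters searched on both strands were CCCNNGGG (core of the EBF motif), ATGCAAAT (the octamer bound by Oct factors) and GAGGAA (a PU.1 core). Over all 10 windows, Cd22 held the EBF core 48 bases before its start, and Cd79a held the PU.1 core on the reverse strand 140 bases before its start. The second window of Ebf1 held the PU.1 core 130 bases before its start. No other match was present. Of 32851 mouse promoter windows of the same length, 13.7% hold the EBF core, 1.74% the octamer and 28.3% the PU.1 core, so matches in 1, 0 and 2 of 10 windows describe these letters and nothing about binding.

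Coordinates of the W/W table are those of GRCm38. The receptor genes are Cd79a (ENSMUSG00000003379, chr7:24897381-24902197, plus strand) and Cd79b (ENSMUSG00000040592, chr11:106311341-106314762, minus strand). The factors are Pax5 (ENSMUSG00000014030, chr4:44524757-44710487, minus strand) and Ebf1 (ENSMUSG00000057098, chr11:44617317-45008091, plus strand). The surface genes on the minus strand are Ms4a1 (ENSMUSG00000024673, chr19:11249675-11266241), Cd22 (ENSMUSG00000030577, chr7:30865402-30880342), Cr2 (ENSMUSG00000026616, chr1:195136811-195176716) and Fcer2a (ENSMUSG00000005540, chr8:3681737-3694175). Jchain (ENSMUSG00000067149) lies on the minus strand at chr5:88519809-88527891. Ms4a1, Pax5, Ebf1 and Cd22 each overlap an annotated gene on the opposite strand, and since strand use in counting is not given in the sources used here, reads of the partners cannot be told apart. The other 5 overlap no annotated gene.

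Library totals were 12800367 to 17550594 counts in the W/W table and 12922147 to 15637644 in the graft table, and levels are given as counts-per-million values (CPM) on libraries scaled by the trimmed mean of M-values (TMM). Water replicate 2 stood apart: it had the fewest detected genes of the W/W libraries (21372) and the lowest TMM factor (0.747, next to 0.794 in progressing replicate 2), so member results and named list calls that rest on it are also given without it. Of 10 T-cell and thymocyte markers, none was at 0 in any group. Thymocytes that are not tumour cells carry these markers too, so their presence cannot check the T-lymphoma label. The summed level of the 10 markers was 1530 to 2063 CPM with water, 2919 to 3628 in progressing, 4126 to 7454 in regressing, 5459 to 6469 in graft PBS and 3564 to 4451 in graft ATO.

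The water libraries held most of the mature B-cell signal of the study, but unequally. Ms4a1 was at 216, 857 and 9.82 CPM in water replicates 1, 2 and 3. Cd79a was at 318, 1135 and 11.5 CPM, and its partner Cd79b at 177, 658 and 29.7 CPM. The B-lineage factor Pax5 was at 132, 134 and 4.51 CPM. Replicate 2 was the highest for the receptor genes and Ms4a1, replicates 1 and 2 were alike for Pax5, and replicate 3 was low for all 4. Cd22, an inhibitory co-receptor, followed the Pax5 pattern with 227, 271 and 9.26 CPM. Ebf1 varied less, with 29.6, 55.5 and 5.74 CPM. Between replicates 2 and 1 the ratio of CPM was 3.97 for Ms4a1 (95% counting interval 3.82 to 4.13), 3.56 for Cd79a (3.45 to 3.68), 3.72 for Cd79b (3.56 to 3.88) and 1.01 for Pax5 (0.947 to 1.08). Counting intervals here reflect counting error alone: the reads carry no molecular identifiers and so are not independent.

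The mature-stage surface genes did not follow that order. Cr2, a complement receptor, had 1676, 1 and 148 counts in water replicates 1, 2 and 3, or 108, 0.0764 and 9.14 CPM. Fcer2a, the low-affinity IgE receptor, had 3399, 2 and 182 counts, or 219, 0.153 and 11.2 CPM. Water replicate 2, the library with the most Ms4a1, Cd79a and Cd79b, was thus the lowest water library for both, below replicate 3. The ratio of CPM between replicates 1 and 2 was 1415 for Cr2 (95% counting interval 254 to 55935) and 1435 for Fcer2a (397 to 11855). Jchain was the most even member, with 317, 257 and 96.9 CPM. Per count of Cd79a, the 3 water libraries were close for Ms4a1, which made up 40.4%, 43.0% and 46.0% of the summed Ms4a1 and Cd79a counts. The exact Clopper-Pearson 95% intervals were 39.3% to 41.5%, 42.4% to 43.6% and 40.6% to 51.4%, so replicates 1 and 2 differed by more than counting error. Of the summed Cr2 and Cd79a counts, Cr2 made up 25.3%, 0.00673% and 44.2% (24.3% to 26.4%, 0.000170% to 0.0375% and 38.8% to 49.7%). Fcer2a made up 40.8%, 0.0135% and 49.3% of its sum with Cd79a. Replicate 2 was by far the lowest in both shares, and for Cr2 replicates 1 and 3 also differed by more than counting error.

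**Figure D1:**
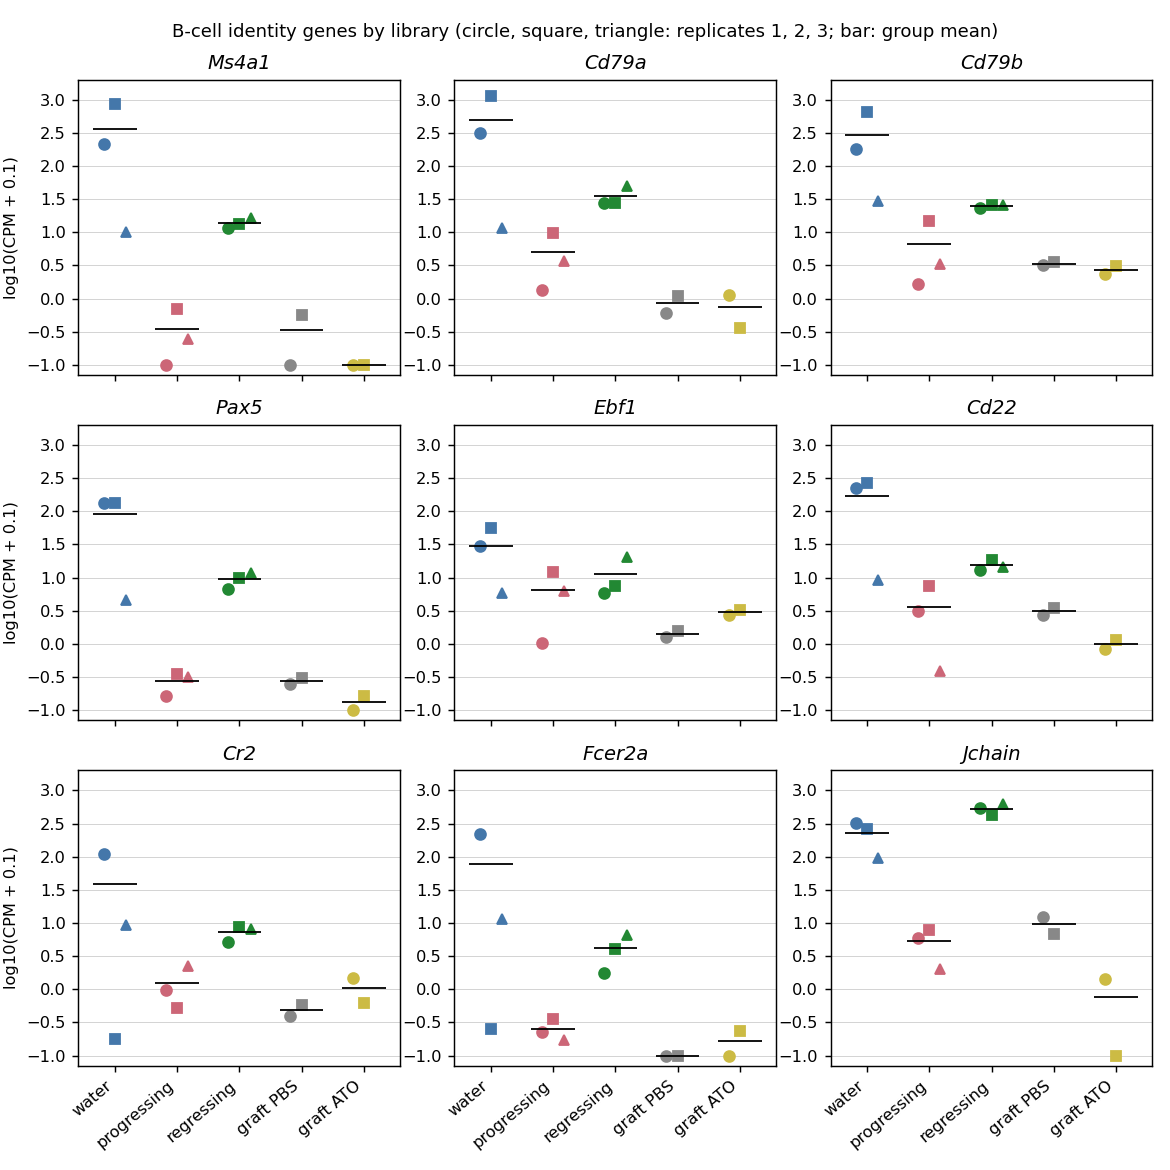
Level of each B-cell identity gene in each library, as log10(CPM + 0.1) on the vertical axis, by group on the horizontal axis; symbols mark replicates and bars the group mean of CPM. Water libraries spread over more than an order of magnitude for most genes, Cr2 and Fcer2a are near the bottom in water replicate 2, and Jchain is highest in the 3 regressing libraries.

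**Figure D2:**
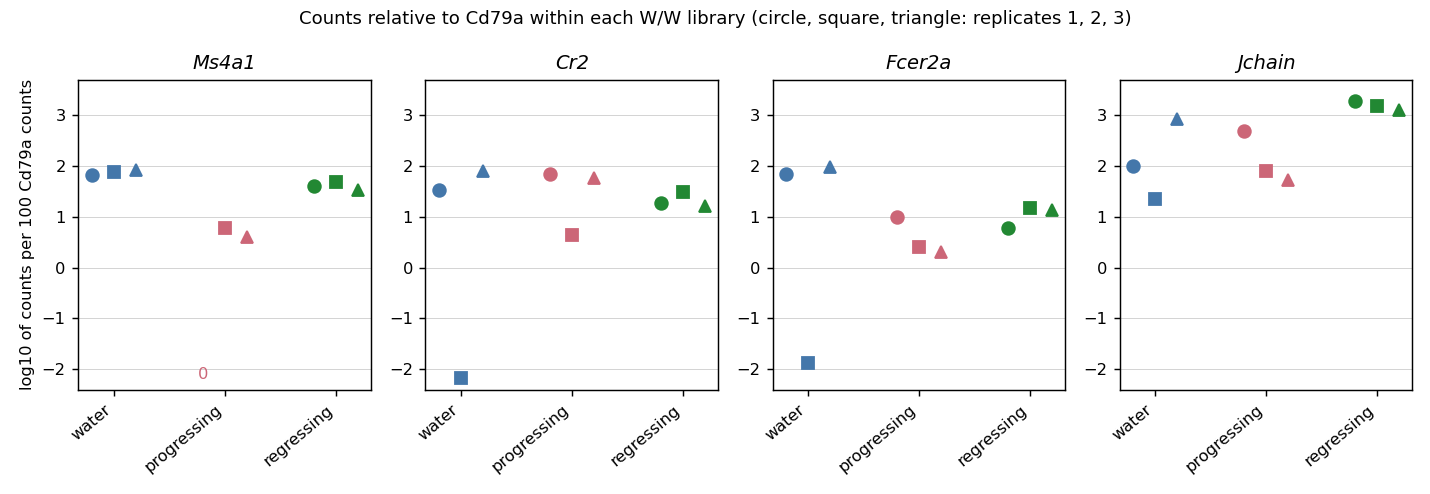
Counts of Ms4a1, Cr2, Fcer2a and Jchain for every 100 Cd79a counts of the same W/W library, on a log10 vertical axis, by group; 0 marks a library without Ms4a1 counts. Water replicate 2 lies far below the other libraries for Cr2 and Fcer2a and among the other water libraries for Ms4a1, and the regressing libraries are the highest for Jchain.

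In progressing tumours the B-cell identity genes were lower than with water, on the mature and on the plasma-cell side alike. With edgeR (quasi-likelihood, Benjamini-Hochberg over 18119 genes), 7 of the 9 members fell at an adjusted p under 0.05 and none rose, where 11.9% of all genes tested were called, 7.13% lower and 4.77% higher. All 9 had an unadjusted p under 0.05. The median log2 fold change of the members was -5.59, beside -0.04 over all genes tested. In 6 of the 9 the groups did not overlap and progressing was lower, as in 14.7% of all genes (26.6% in either direction).

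Ms4a1 was at 0, 0.592 and 0.147 CPM in the progressing replicates (0, 7 and 2 counts), all below the lowest water library, and it fell by 10.59 on the log2 scale (adjusted p = 0.00498, SE 1.65). Pax5 had 1, 3 and 3 counts, or 0.0617, 0.254 and 0.221 CPM, which is at the floor of 3 counts per library, so it was at least 411-fold lower than with water (adjusted p = 0.00321). The groups were apart for both. Cd79a was at 1.23, 9.72 and 3.60 CPM, with the highest progressing library below the lowest water library (11.5 CPM), and fell by 6.66 (SE 1.39, adjusted p = 0.0146). Cd79b was at 1.54, 14.9 and 3.23 CPM and fell by 5.47 (SE 1.13, adjusted p = 0.0143), also without overlap. Cd22 was at 3.02, 7.27 and 0.294 CPM and fell by 5.59 (SE 1.22, adjusted p = 0.0180). Its groups lay close, the highest progressing library being just under water replicate 3 (9.26 CPM). Replicate 2 was the highest progressing library for all 5 of these genes.

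Fcer2a had 2, 3 and 1 counts, or 0.123, 0.254 and 0.0735 CPM, again at the floor, and was at least 349.8-fold lower on the mean (adjusted p = 0.0219). Its groups overlapped because water replicate 2 was just as low, and without that library the adjusted p was 0.00459. The size rested on water replicate 1: without it the fitted change went from -8.96 to -5.20 (adjusted p = 0.0557), and the call held in 2 of the 6 fits without 1 library. Cr2 was at 0.863, 0.423 and 2.13 CPM, between water replicate 2 and the other water libraries, with a log2 fold change of -5.09 (SE 1.60) that did not pass (adjusted p = 0.0642). Without water replicate 2 it was -5.67 and passed (adjusted p = 0.0109), and without water replicate 1 it was -2.01 (adjusted p = 0.340). Ebf1 was at 0.925, 12.2 and 6.10 CPM, so progressing replicates 2 and 3 reached above water replicate 3, and its change of -2.25 (SE 0.96) did not pass (adjusted p = 0.154). Jchain was at 5.92, 7.69 and 1.91 CPM, all far below the lowest water library, and fell by 5.43 (SE 0.63, adjusted p = 0.00151). Without progressing replicate 3 the called members went from 7 to 3 (Ms4a1, Pax5 and Jchain), and limma-voom called 2 (Cd79b and Jchain). Jchain alone of the 9 was called lower whichever of the 6 libraries was omitted and under all 7 other alternatives.

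In regressing tumours Jchain lay above the water libraries, a difference that did not pass the test, and 1 mature gene, Ms4a1, was called lower. Ms4a1 was at 11.4, 13.0 and 16.6 CPM in regressing replicates 1, 2 and 3, and Pax5 at 6.74, 9.67 and 11.6 CPM. Cd79a was at 27.6, 27.2 and 49.2 CPM. All of these lay above water replicate 3 and below water replicates 1 and 2, and the 3 regressing libraries differed among themselves by far less than the water libraries. Cd79b was at 23.5, 25.8 and 25.8 CPM, below all water libraries. Cd22 was at 12.9, 18.4 and 14.2 CPM and Ebf1 at 5.69, 7.41 and 20.2 CPM, both overlapping water. Cr2 was at 5.14, 8.47 and 7.98 CPM, and Fcer2a at 1.67, 4.02 and 6.59 CPM, in both cases between water replicate 2 and water replicate 3. Jchain, by contrast, was at 537, 418 and 618 CPM, and every regressing library exceeded every water library.

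Against water, 1 of the 9 members was called, where 7.7% of all genes were called, 4.57% lower and 3.13% higher. This was Ms4a1, at -4.72 on the log2 scale (SE 1.21, adjusted p = 0.0425 by edgeR), although its groups overlapped at water replicate 3. That call was lost on leaving out water replicate 1 or 2 or any regressing library (adjusted p from 0.0509 to 0.176), and it held without water replicate 3 (adjusted p = 0.0122). By DESeq2 5 members were called, and by limma-voom none. The median over the members was -3.48, beside -0.11 over all genes, and 7 of the 9 had an unadjusted p under 0.05. Without water replicate 3, 5 members were called lower (Ms4a1, Cd79a, Cd79b, Pax5 and Cd22), and without water replicate 2 only Fcer2a was (-4.76, adjusted p = 0.0405), which was at -0.47 without water replicate 1 (adjusted p = 0.827). Jchain averaged 524 ± 100 CPM in regressing and 224 ± 114 CPM with water (SD, n = 3 each), a log2 difference of 1.23 (SE 0.52) that did not pass (adjusted p = 0.154). With no filter on low counts it passed (1.33, adjusted p = 0.0299), as did 7 mature genes in the lower direction. Of the 9 members, 2 had groups without overlap, Jchain higher and Cd79b lower, and this is found in 40.1% of all genes here (20.9% lower, 19.3% higher). For Cr2 the direction itself rested on 1 library, at -2.44 with all libraries and 0.65 without water replicate 1.

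Regressing against progressing tumours, 3 of the 9 members were called and all 3 rose, where 12.6% of all genes were called, 6.45% higher and 6.18% lower. Jchain rose by 6.66 (log2, SE 0.66, edgeR adjusted p = 0.00298), from 5.17 ± 2.96 to 524 ± 100 CPM (SD, n = 3 each). Ms4a1 rose by 5.87 (SE 1.46, adjusted p = 0.0306), from 0.246 ± 0.308 to 13.6 ± 2.65 CPM. Pax5 was at least 42.5-fold higher (adjusted p = 0.0189), since the progressing libraries were at the floor. In 8 of the 9 genes every regressing library lay above every progressing one, which 21.4% of all genes show in that direction, 20.6% in the opposite one and 42% in either, and Ebf1 was the exception with overlapping groups. The remaining log2 differences did not pass: 2.85 for Cd79a (adjusted p = 0.127), 1.94 for Cd79b (0.199), 2.11 for Cd22 (0.199), 2.65 for Cr2 (0.236), 4.73 for Fcer2a (0.114) and 0.80 for Ebf1 (0.584). Jchain kept its call whichever of the 6 libraries was omitted (adjusted p from 0.00737 to 0.0101). Ms4a1 lost its call in each of them (0.0568 to 0.0996), and Pax5 lost it without progressing replicate 3, regressing replicate 1 or regressing replicate 2 (0.0613, 0.0521 and 0.0515).

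**Figure D3:**
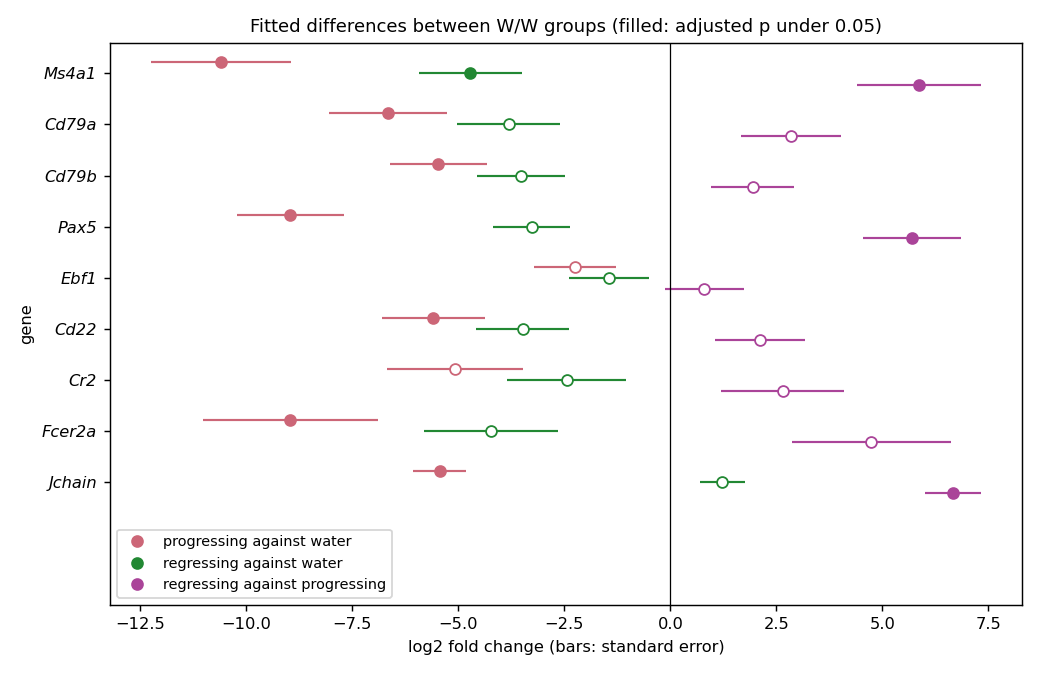
Fitted log2 fold changes of the 9 genes on the horizontal axis in the 3 comparisons of W/W groups, with standard errors as bars; filled points have an edgeR adjusted p under 0.05. Jchain lies with the others in progressing against water (-5.43) and on the opposite side of 0 in regressing against water (1.23).

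The balance between Jchain, the plasma-cell member, and the mature B-cell members was read within each library, which needs no scaling between libraries. It is a share of Jchain alone, and other plasma-cell genes, given below, were not called higher in regressing against water. Jchain made up 85.0%, 78.6% and 80.3% of the summed counts of the 9 members in regressing replicates 1, 2 and 3 (exact Clopper-Pearson 95% intervals 84.3% to 85.7%, 77.6% to 79.5% and 79.5% to 81.0%). With water it made up 18.2%, 7.65% and 51.6% (17.7% to 18.7%, 7.40% to 7.90% and 49.8% to 53.4%). In progressing tumours it was 43.2%, 14.4% and 10.8%, of only 222, 630 and 241 counts (36.6% to 50.04%, 11.8% to 17.4% and 7.17% to 15.4%). All 3 regressing libraries were above the other 6, and water replicate 3 was the nearest. As shares of all counts, without that scaling, the 8 mature genes together gave 109, 126 and 159 CPM in regressing, 1481, 2321 and 99.3 with water, and 8.26, 36.1 and 16.3 in progressing. Water replicate 3 therefore was close to the regressing libraries in mature content, and its Jchain share of 106 unscaled CPM was below their 619, 463 and 646. Within the mature genes of regressing replicates 1, 2 and 3, Ms4a1 made up 29.2%, 32.3% and 25.2% of its sum with Cd79a, and Cr2 15.7%, 23.7% and 14.0%. Fcer2a made up 5.71%, 12.9% and 11.8% (3.795% to 8.20%, 9.89% to 16.3% and 9.72% to 14.2%). For Cr2 and Fcer2a these shares lay within the wide range of the water libraries, and for Ms4a1 they were below all 3 of them.

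**Figure D4:**
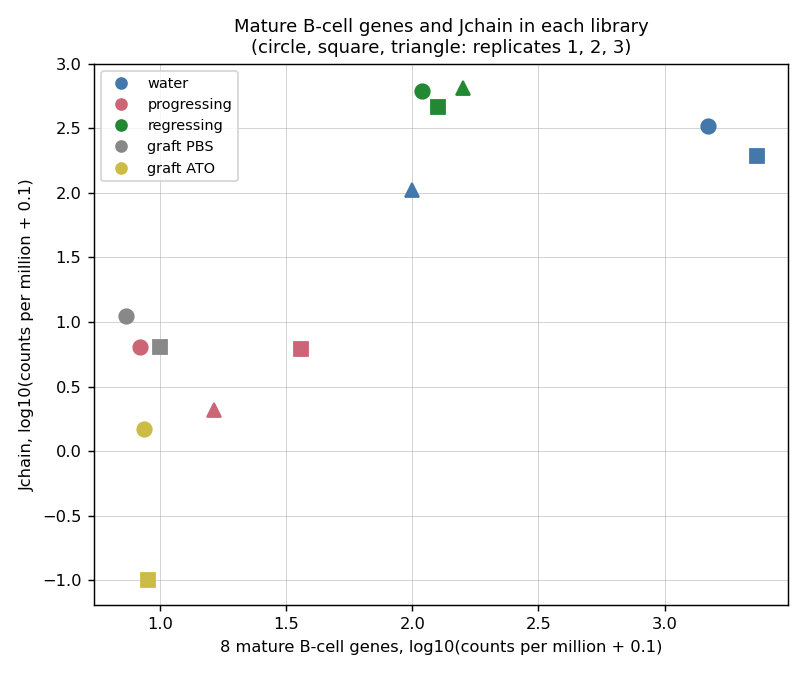
Summed share of the 8 mature B-cell genes (horizontal) against the share of Jchain (vertical) in each library, both as log10(unscaled CPM + 0.1). Regressing libraries combine a moderate mature share (109 to 159 CPM) with the highest Jchain, water replicates 1 and 2 lie to the right, and progressing and graft libraries lie at the lower left.

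Other genes of mature B cells were also lowest in progressing tumours. Of 15 listed, 13 fell in progressing against water and none rose, with a median log2 fold change of -5.46. Among them were the transcription factor Spib (-6.68, edgeR adjusted p = 0.00169), the chemokine receptor Cxcr5 (-6.20, adjusted p = 0.00648) and Fcmr, an IgM receptor (-8.03, adjusted p = 0.00544). Against water, 5 of the 15 fell in regressing (Fcrl1, Spib, Pou2af1, Tnfrsf13c and Cd37; median -2.70; Fcrl1 alone without water replicate 2), and 7 rose in regressing against progressing (median 2.40; 1 to 4 on leaving out a library in turn). Of 12 genes of B-cell receptor signalling, 8 fell in progressing against water, including the kinases Syk (-2.84, adjusted p = 0.0244), Btk (-3.99, adjusted p = 0.0140) and Lyn (-3.03, adjusted p = 0.0131), with a median of -2.72. Syk did not pass without water replicate 2 (-2.01, adjusted p = 0.0566), and 2 to 8 of the 12 fell on leaving out a library in turn. In regressing, 1 fell against water (the adaptor Blnk, lost without water replicate 2, adjusted p = 0.120) and 1 rose against progressing (the phosphatase Ptpn6, called in none of the 6 fits without 1 library). Several of these signalling genes are also expressed by myeloid cells, whose 8 macrophage markers summed to 1580 to 2261 CPM with water, 266 to 1238 in progressing and 448 to 858 in regressing, and the part of those cells was not tested.

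Among 6 germinal centre genes, 3 fell in progressing against water, among them Gcsam and Rgs13, and 1, Gcsam, without water replicate 2. Bcl6, a repressor that germinal centre B cells share with other lymphocytes, was at 198, 197 and 117 CPM in regressing and 15.8, 7.41 and 12.04 CPM with water, and rose by 3.86 (SE 0.46, edgeR adjusted p = 0.00323). It also rose against progressing (2.80, adjusted p = 0.00977), as did Gcsam. With water, Rgs13 was highest in replicate 2, at 17.2 CPM against 0.516 and 7.96 CPM in replicates 1 and 3. Vpreb3, of the early B-cell list, was at 4.19, 70.6 and 1.98 CPM with water and 0.681, 0.706 and 1.19 CPM in regressing, and fell (-4.88, adjusted p = 0.0453), a call lost without water replicate 2 (-1.76, adjusted p = 0.212) or without any regressing library. It was the single call in the W/W comparisons among the 3 of 5 early B-cell genes that could be tested, and Vpreb2 and Igll1 were too low for testing.

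Immunoglobulin constant genes, like Jchain, were higher in regressing than in progressing libraries. Unlike Jchain, their sums overlapped with water, at 4442 to 5323 CPM in regressing and 1378 to 9046 CPM with water. Of 12, 10 fell in progressing against water (median -6.60; 5 to 12 on leaving out a library in turn), 11 rose in regressing against progressing (median 6.18, or 6.12 taking floor genes at their bound; 5 to 9 on leaving out a library in turn), and none was called in regressing against water (median 0.54, 2 with an unadjusted p under 0.05, and all by edgeR). Igha, the heavy chain of IgA, was at 314, 31.9 and 41.8 CPM with water, 11.8, 14.9 and 4.34 CPM in progressing and 942, 967 and 875 CPM in regressing. Every regressing library was above every other W/W library, and the difference was 2.84 against water (SE 0.81, edgeR adjusted p = 0.0572) and 6.49 against progressing (SE 0.97, adjusted p = 0.00924). Of the 12 constant genes, regressing groups lay apart from water in 1, Igha, and from progressing in 12. Over all genes the groups lay apart in 40.1% (19.3% higher) against water and 42% (21.4% higher) against progressing. Igkc, the kappa light chain, was at 1333, 4040 and 327 CPM with water, 11.7, 26.3 and 5.15 CPM in progressing and 1636, 1284 and 1761 CPM in regressing. It fell in progressing against water (-7.05, adjusted p = 0.00336) and was nearly level in regressing against water (-0.28, SE 0.77, adjusted p = 0.837).

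Heavy-chain class set the libraries apart further. In regressing replicates 1, 2 and 3, Igha made up 27.2%, 32.0% and 26.1% of heavy-chain constant counts and the 4 Ighg genes 27.4%, 30.3% and 31.4%, with Ighm, the heavy chain of IgM, at 45.1%, 36.9% and 42.0%. Water replicate 2 was almost pure Ighm, at 98.4% (exact interval 98.3% to 98.5%), with 0.392% from the Ighg genes. Water replicate 1 held 52.7% Ighm, 27.9% Ighg and 10.1% Ighd, the heavy chain of IgD on naive B cells, and water replicate 3 held 86.3%, 8.90% and 0.733%. Ighd was at 346, 18.1 and 7.59 CPM with water, so it was high in replicate 1 alone, the library with most Cr2 and Fcer2a. The Ighg and Iglc genes are near-identical copies, and how the authors' counting split reads between them is not given in the sources used here.

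**Figure D5:**
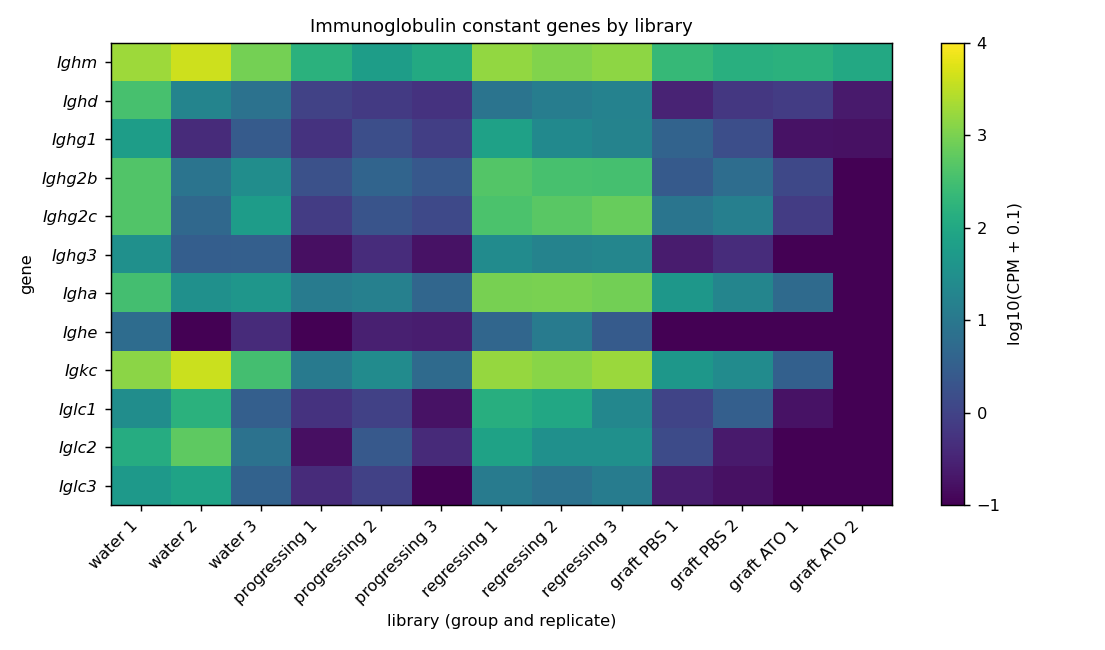
Level of 12 immunoglobulin constant genes (rows) in each library (columns), coloured by log10(CPM + 0.1). Igha and the Ighg genes are high in the 3 regressing libraries and water replicate 1, Ighm and Igkc are highest in water replicate 2, and all but Ighm are low in progressing and graft libraries.

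Of 12 genes of the plasma-cell programme other than Jchain and the immunoglobulins, none was called in regressing against water (median -1.11, 7 with an unadjusted p under 0.05, all by edgeR), 7 fell in progressing against water (median -2.23, or -1.96 taking floor genes at their bound), and 5 rose and 1 fell in regressing against progressing (median 1.64; 2 to 3 rose on leaving out a library in turn). Xbp1, a factor of the secretory programme, was at 128, 123 and 114 CPM with water, 61.7, 43.2 and 57.3 CPM in progressing and 181, 166 and 193 CPM in regressing. Its 3 groups did not overlap, and it rose by 1.73 in regressing against progressing (SE 0.26, edgeR adjusted p = 0.00924). Over all genes, groups did not overlap in 40.1% for regressing against water, 26.6% for progressing against water and 42% for regressing against progressing. Mzb1, a chaperone of immunoglobulin assembly, was at 15.7, 72.9 and 1.79 CPM with water, 0.123, 0.423 and 0.147 CPM in progressing and 4.58, 7.91 and 7.52 CPM in regressing (4.84 against progressing, adjusted p = 0.0299, called in none of the 6 fits without 1 library). Derl3, Ell2 and Slamf7 were the other 3 that rose against progressing. Sdc1 (CD138), a surface marker of plasma cells that epithelial cells also carry, was the gene that fell, at 16.1, 14.5 and 21.9 CPM in regressing and 19.4, 103 and 135 CPM in progressing (-2.30, adjusted p = 0.0490), a call that held in 1 of the 6 fits without 1 library.

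In the grafted tumours the B-cell identity genes were near the floor, and a filter on low counts left 5 of the 9 for testing. Jchain counts were 167 and 99 with PBS against 18 and 0 with ATO, or 12.2 and 6.65 against 1.33 and 0 CPM. Both ATO libraries were below both PBS libraries, and Jchain fell by 3.85 (log2, SE 0.89, edgeR adjusted p = 0.0197). The size rested on ATO replicate 2, which had 0 counts: it was -2.83 without that library and -10.11 without ATO replicate 1, where the only ATO library left is at 0. It was the single member called, where 13.9% of all 15468 genes were called, 6.57% lower and 7.37% higher, and DESeq2 did not call it (adjusted p = 0.275). Cd22 was at 2.62 and 3.36 CPM after PBS and 0.738 and 1.05 CPM after ATO, apart but short of the threshold (-1.73, SE 0.55, adjusted p = 0.0553). Ebf1 was at 1.16 and 1.48 CPM after PBS and 2.66 and 3.16 CPM after ATO, the one tested member higher after ATO in every library (1.13, SE 0.51, adjusted p = 0.155). Groups did not overlap in 4 of the 5 tested members, and in 61.7% of all genes (30% lower, 31.7% higher). Cd79b, at 3.13 and 3.42 against 2.29 and 2.96 CPM, had a difference of -0.32 (SE 0.47, adjusted p = 0.681). Cd79a, at 0.510 and 1.01 against 1.03 and 0.263 CPM, had one of -0.25 (SE 0.77, adjusted p = 0.854), a sign that turned to 0.30 without PBS replicate 2 and to 0.42 without ATO replicate 2.

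Of all counts of the 9 members, Jchain made up 60.7% and 39.0% with PBS, of 275 and 254 counts, and 14.1% and 0% with ATO, of 128 and 124 counts, where the 0 allows a share of up to 2.42%. Ms4a1 (counts of 0 and 7 in PBS, 0 and 0 in ATO), Pax5 (2 and 3, then 0 and 1), Cr2 (4 and 7, then 19 and 8) and Fcer2a (0 and 0, then 0 and 2) were not tested, and no difference in them was detectable at this depth. Of 7 immunoglobulin constant genes tested in the grafts, 5 fell after ATO. Igkc was at 43.8 and 25.6 CPM after PBS and 3.32 and 0 CPM after ATO (-4.41, SE 0.88, edgeR adjusted p = 0.0127), and Igha at 43.3 and 19.1 against 5.24 and 0 CPM (-3.59, SE 0.96, adjusted p = 0.0320). Ighm, at 228 and 144 against 159 and 103 CPM, did not pass (-0.50, adjusted p = 0.219). Ighm made up 79.6% and 77.6% of heavy-chain constant counts with PBS and 95.4% and 99.8% with ATO. Its level thus stayed high after ATO where Igkc and the B-cell members were near 0, and which cells carried Ighm was not tested. None of 11 other mature B-cell genes, 9 plasma-cell genes and 12 receptor-signalling genes tested was called by edgeR, with 1, 2 and 2 of them at an unadjusted p under 0.05. Of 3 early B-cell genes tested, 1 rose after ATO, Cd93, at 28.7 and 18.6 CPM after PBS and 41.4 and 63.7 CPM after ATO. Macrophage markers moved beside Jchain in the grafts, with 3 of 7 lower after ATO and a summed level of 616 to 799 CPM after PBS and 330 to 366 CPM after ATO, and their part in the result was not tested.

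Fibroblasts and adipocyte precursors also express Ebf1, and 8 adipocyte markers summed to 124, 1212 and 246 CPM in progressing replicates 1, 2 and 3, where Ebf1 was at 0.925, 12.2 and 6.10 CPM. In regressing replicates 1, 2 and 3 they summed to 152, 460 and 3832 CPM beside Ebf1 at 5.69, 7.41 and 20.2 CPM. The library with the highest sum was thus the highest for Ebf1 in those groups and with water (44.7, 153 and 83.0 CPM beside Ebf1 at 29.6, 55.5 and 5.74 CPM). Most of the sum was Fabp4 in every library, at 34.6, 142 and 76.9 CPM with water. There Fabp4, Pparg and Cfd were highest in replicate 2, and Adipoq (2.51, 0.153 and 3.89 CPM), Plin1, Cidec and Retn were not, so the match with water did not hold for each marker. In the grafts adipocyte sums were 79.6 and 114 CPM after PBS and 61.4 and 47.7 CPM after ATO, opposite to Ebf1. Fibroblast and pericyte sums with water were 499, 386 and 1077 CPM, the reverse of the order of Ebf1. In progressing replicates 1, 2 and 3 they were 642, 1134 and 838 CPM, in the order of Ebf1. In regressing they were 166, 152 and 531 CPM, so replicate 3 was the highest for both, with replicates 1 and 2 in the other order. In the grafts, 3 of 8 fibroblast and pericyte markers rose after ATO (Pdgfra, Col1a1 and Col3a1), with sums of 202 to 354 CPM after PBS and 467 to 1259 CPM after ATO. The part of these cells in the Ebf1 values was not tested. Markers of follicular dendritic cells and lymph node stroma (5 found of 6) summed to 34.3, 41.6 and 45.7 CPM with water. Follicular dendritic cells also express Cr2, which had 1 count in water replicate 2. Most of the sum there was Cxcl13, at 21.2, 39.6 and 37.3 CPM in water replicates 1, 2 and 3, so it was highest in replicate 2. Madcam1 (2.51, 0.458 and 5.001 CPM), Glycam1 (8.90, 0.458 and 2.59 CPM) and Chst4 (0.322, 0 and 0.247 CPM) were lowest in replicate 2, and Lyve1 (1.35, 1.15 and 0.556 CPM) was lowest in replicate 3. Chst4 had only 5, 0 and 4 counts, and Glycam1 and Chst4 did not pass the low-count filter. The part of these cells in the Cr2 values was not tested.

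Other cell types moved with the same groups, and their part in the member results was not tested. Of 8 thymic epithelium markers, 5 fell in progressing against water and 6 rose in regressing against progressing, with sums of 157 to 917 CPM with water, 41.6 to 102 in progressing and 1483 to 1692 in regressing. Of 10 T-cell markers, 4 rose in regressing against water. None of 3 markers of plasmacytoid dendritic cells, which also express Spib, was called in any comparison by edgeR, with 0, 2, 3 and 0 at an unadjusted p under 0.05, and they summed to 3.22 to 19.0 CPM with water, 2.10 to 71.9 in progressing and 10.2 to 18.9 in regressing. Of 8 fibroblast markers, 2 fell in regressing against water, Col1a1 and Col3a1. Mitochondrial genes took 2.55%, 3.79% and 2.75% of the counts with water, 4.70%, 8.83% and 4.86% in progressing, above every water library, and 2.08%, 2.96% and 8.48% in regressing, and 0.521% and 1.02% after PBS against 5.98% and 4.03% after ATO in the grafts.

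Compared between genes per kilobase of exon, Cd79a led with water at 335 ± 398 CPM per kb (SD, n = 3), before Cd79b at 202 ± 230, Jchain at 89.0 ± 45.3, Ms4a1 at 58.3 ± 71.4 and Cd22 at 33.5 ± 27.8. Fcer2a (24.9 ± 39.9), Pax5 (10.2 ± 8.38), Cr2 (4.80 ± 7.36) and Ebf1 (3.10 ± 2.55) followed, and no neighbours in this order differed beyond their spread. In regressing tumours Jchain led at 208 ± 39.9 CPM per kb, apart from Cd79a at 23.8 ± 8.63 and Cd79b at 17.5 ± 0.928, which were close to each other. Cd22 (3.01 ± 0.563), Ms4a1 (2.20 ± 0.428) and the other 4 were lower, down to Cr2 at 0.883 ± 0.221. In progressing tumours no member exceeded a mean of 4.58 CPM per kb, that of Cd79b.

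The genes most like each member were taken by Pearson's r of log2 CPM over the 9 W/W libraries, which fall into 3 groups, so the values describe these libraries and carry no test. Pax5 was nearest to Fcmr (0.994), Siglecg (0.993) and Klrd1 (0.991), and Ms4a1 to Rnase6 (0.990), Pax5 (0.987) and Klrd1 (0.986). Cd79a was nearest to Bcar3 (0.992), Napsa (0.982) and Cd79b (0.975), and Cd79b to Napsa (0.987), Pld4 (0.980) and Cd79a. Cd22 was nearest to Cyp4f18 (0.967), Unc93b1 (0.959) and Psmb9 (0.953). Cr2 was nearest to A230072E10Rik (0.979), Ing5 (0.972) and Gm16279 (0.967), and Fcer2a to Strc (0.984), Sox13 (0.981) and Cep170b (0.970), none of which is a member. Ebf1 had Ackr1 (0.947), a receptor of venular endothelium, Dmac2 (0.935) and Vwa1 (0.931). Jchain had Nradd (0.990), Bahd1 (0.985) and Clec2d (0.977) and no other member.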

How the data were processed

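Polyadenylated RNA of 9 W/W thymus tumours and 4 grafts was sequenced. The labels' protocols give TRIzol for RNA and the SMARTer mRNA-Seq kit for libraries; the same text holds an adipocyte culture passage that does not describe these tissues. The submitters' processing notes name FastQC 0.10.1, cutadapt 1.9.1, HISAT2 2.0.1 and GRCm38/mm10, while the program that counted reads, whether it used strand, and the annotation are not given in the sources used here. Raw counts for each gene were deposited, with FPKM values and the exonic gene size beside them. FPKM values from the authors served only to check totals, and the total they imply exceeded the summed counts by 0.106% to 2.33% in the W/W table, with water replicate 2 the highest; the difference was not analysed here. The graft table uses another mouse build, which the sources used here do not name, so no coordinates were taken from it. The exonic size in the deposited tables gave CPM per kilobase. The U937 table was not used.

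Groups came from the labels. The 9 W/W libraries were fitted together as 3 groups and the 4 grafts alone, with edgeR 4.0.16 in R 4.3.3 (filterByExpr, TMM, quasi-likelihood test, Benjamini-Hochberg over all genes tested, called at an adjusted p under 0.05). A standard error is the absolute log2 fold change over the square root of F. Where no library of a group exceeds 3 counts, the gene is at the floor and its fold is a lower bound. Replicate numbers were not taken to pair the samples. Replicates of a group differed by more than counting noise. Alternatives were DESeq2 1.42.0, its size factors in edgeR, limma-voom (limma 3.58.1), no low-count filter, immunoglobulin genes left out, compared groups only, a replicate block and leaving out each library (for the gene lists, added after the data were seen). The method was tested on simulated data. Members and gene lists were chosen with earlier results of these data known. The text names the 9 members throughout, the called genes of each list and up to 4 others by mean level, all immunoglobulin constant genes, and the 3 nearest genes by correlation. Igll1, Vpreb2, Chst4, Adipoq, Pparg and Retn were named after their values were seen. Some listed genes are counted and not reported here by name.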

Additional observations from a re-analysis of the deposited data

Results flagged for a closer look

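The difference from water was not the same in the outcome groups for 3 members, by edgeR's quasi-likelihood test. That test is the comparison of regressing with progressing libraries, since both share the water controls. The groups were formed by outcome, so it does not measure a difference in the effect of ATO. The difference, regressing minus progressing, was 6.66 on the log2 scale for Jchain (adjusted p = 0.00298), 5.87 for Ms4a1 (adjusted p = 0.0306) and 5.70 for Pax5 (adjusted p = 0.0189). Every regressing library was above every progressing one for these 3, as in 21.4% of all genes. Jchain kept its call in all 6 fits without 1 library, Pax5 in 3 and Ms4a1 in 0. The 5.70 is a fitted value against libraries at the floor, for which the bound is 42.5-fold.

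Jchain lay in opposite directions in regressing W/W libraries against water and in ATO grafts against PBS. Every regressing W/W library was above every water library (log2 difference 1.23, edgeR adjusted p = 0.154), as in 19.3% of all genes. Every ATO graft was below every PBS graft (-3.85, adjusted p = 0.0197), as in 30% of all genes. In progressing libraries, also from mice given ATO, Jchain fell against water (-5.43, adjusted p = 0.00151), the same direction as in the grafts. The difference between the systems was not tested, as they are separate tables with separate normalization.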

How the results depend on the processing

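Of 405 alternative values of the members' log2 fold changes, 401 kept their direction and 335 also their side of the threshold. The 4 that reversed were Cr2 in regressing against water (0.39 with limma-voom, and -2.97 to 0.65 on leaving out a library, the highest without water replicate 1) and Cd79a in the grafts (-1.52 to 0.42 on leaving out a library, with 0.30 without PBS replicate 2 and 0.42 without ATO replicate 2). The counts of members called moved more. In regressing against water, 1 became 5 with DESeq2, 0 with limma-voom, 8 with no low-count filter and 0 with the compared groups only, and 0 to 5 on leaving out a library. In progressing against water, 7 became 2 with limma-voom, 9 with no filter (Cr2, adjusted p = 6.56e-06, and Ebf1, adjusted p = 0.0133, added) and 3 to 8 on leaving out a library. In regressing against progressing, 3 became 5 with DESeq2, 1 with limma-voom, 8 with no filter and 6 with the compared groups only, and 1 to 2 on leaving out a library. In the grafts, 1 became 0 with DESeq2 (Jchain, adjusted p = 0.275) and 2 with no filter, and 1 in each fit without 1 library, where the lone library of a group is assumed to vary like the other group. Genes called over the whole table numbered 1396, 2157, 2289 and 2157 in these comparisons, and 956 to 3144, 882 to 3859, 1597 to 4100 and 1350 to 3298 over the alternatives that keep all libraries or the compared groups. Left out one at a time, libraries gave 60 to 1190, 907 to 2557, 177 to 2000 and 685 to 2420. The cause was not tested, except that leaving out a library also leaves fewer samples. Fcer2a gave no value in progressing against water with the compared groups only, where it did not pass the filter.

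A replicate block gave 0, 6, 3 and 1 members called in the 4 comparisons. Deviations of same-numbered W/W libraries correlated at -0.12 to 0.14, so the numbers were not taken to pair them. In the grafts same-numbered deviations correlated at -0.13. With 2 libraries in each group, crossed numbers must give the same value with the opposite sign, so it cannot tell whether the numbers pair. A block with crossed numbers, added after the data were seen, gave 2 members and 3298 genes called. Scaling by DESeq2's size factors or without immunoglobulin genes left each of the 4 member counts as it was. Depth limits the progressing and graft libraries most, where several members had 3 counts or fewer.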
